A study of Mus musculus with 6 samples.

Results

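Chemokines are small secreted proteins that guide leukocytes through G protein-coupled receptors. Cxcl9, Cxcl10 and Cxcl11 are known as interferon-inducible ligands of the receptor Cxcr3 on activated T cells and natural killer cells. Cxcl12, the ligand of Cxcr4 and of the scavenging receptor Ackr3, is made constitutively by stromal cells such as fibroblasts and holds progenitor cells in their niches. Cxcl16, the ligand of Cxcr6, and Cx3cl1 (fractalkine), the ligand of Cx3cr1, stand apart from most chemokines because they are made as transmembrane proteins on a mucin-like stalk and are shed by proteases. The members described here were these 6 genes out of 18194 with a probe set of their own, chosen by symbol, though with earlier results of these data known. They were read by 14 of the 45101 probe sets on the array, and 5 of the 6 genes (9 of the 14 probe sets) lay above the filter on dim signals and were tested.

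The samples were primary mouse embryo fibroblasts of the outbred ICR strain, grown from 2 embryos at embryonic day 15.5, so each group holds the same 2 cultures, numbered 1 and 2. In HS+LPS a heat shock of 1 h at 42 °C came before 4 h with E. coli lipopolysaccharide (LPS) at 1 μg/ml, in LPS the cells received the same LPS without heat, and in Control they stayed untreated at 37 °C. The labels name no allele or transgene in any group. A group heated without LPS was not analysed here, so HS+LPS against LPS cannot part heat itself from the way heat alters the response to LPS. Each of the 6 arrays gives scaled linear intensities, and fold changes are taken after adding 3.37 to each intensity, so the change of a dim gene is understated.

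The fibroblast label was met by its markers: 8 of 8, among them Col1a1, Pdgfrb and Vim, were above noise on every array, with summed intensities of 27867 to 29686 in HS+LPS, 27868 to 28324 in LPS and 26506 to 33216 in Control. The brightest markers dominate these sums, and some dimmer ones varied more. Pdgfra read 117 to 1309 and Thy1 361 to 1067 over all arrays. Noise means the brightest of 27 probe sets for Bacillus subtilis genes on an array, 6.004 to 7.67. The array medians, 11.9 to 14.4, lay above it, so being above noise is a low bar. The T cell genes Cd3e, Cd3d and Cd3g were above noise on 0 arrays, as were the macrophage markers Itgam and Fcgr1 and the endothelial markers Pecam1 and Tie1. Of 8 macrophage markers 4 were above noise on all arrays (Csf1r, Adgre1, Cd68 and Lyz2), with Lyz2 at 89.8 to 220. The macrophage list summed to 209.1 to 332 in HS+LPS, 209.9 to 387 in LPS and 222 to 417 in Control, so these groups overlapped. Of the endothelial markers 3 of 6 were above noise on all arrays (Tek, Kdr and Emcn). The endothelial list summed to 67.5 to 102 in HS+LPS, 40.4 to 88.6 in LPS and 57.6 to 72.5 in Control, again with overlap. Of the T and NK cell list, 1 of 6 markers on the array (Cd8a) was above noise on all arrays and 5 on none. The list summed to 22.3 to 25.3 in HS+LPS, 29.5 to 35.7 in LPS and 19.2 to 25.6 in Control. The sum was highest in LPS, but apart from Cd8a it holds values under noise, so no direction is read from it. Epithelial markers (2 of 6) summed to 89.3 to 126 in HS+LPS, 52.2 to 96.3 in LPS and 54.3 to 61.3 in Control, and neural markers (4 of 6) to 436 to 646, 280.0 to 465 and 370 to 519 in the same groups. The part of other cells in the chemokine signals was not tested, and in bulk samples fewer cells of a type and less RNA per cell cannot be told apart.

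LPS raised Cxcl10 and Cx3cl1, and Cxcl11 and Cxcl16 too once the culture was a block in the fit, while Cxcl12 did not pass. With a preceding heat shock the same 4 chemokines were lower than in LPS with the block, and Cxcl10, Cxcl16 and Cx3cl1 also without it. Of the 5 members tested 2 rose with LPS against a background of 0.147% of the 12918 genes tested, and 4 rose with the block against 2.06%. In HS+LPS against LPS 3 members fell against a background of 0.828%, and 4 with the block against 12.6%. The groups of 4 members did not overlap in either comparison (LPS above Control for 13.1% of all genes, HS+LPS below LPS for 28.8%). These 4 include Cxcl11, whose LPS arrays raised the mean signal by which it passed the filter. Its place in these counts is therefore not independent of its high LPS values. The median log2 difference of the 5 members was 2.45 for LPS against Control and -2.08 for HS+LPS against LPS, where all genes had medians of -0.05 and -0.05. These comparisons share the LPS arrays, so a high LPS array enters both the rise and the fall.

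**Figure D1:**
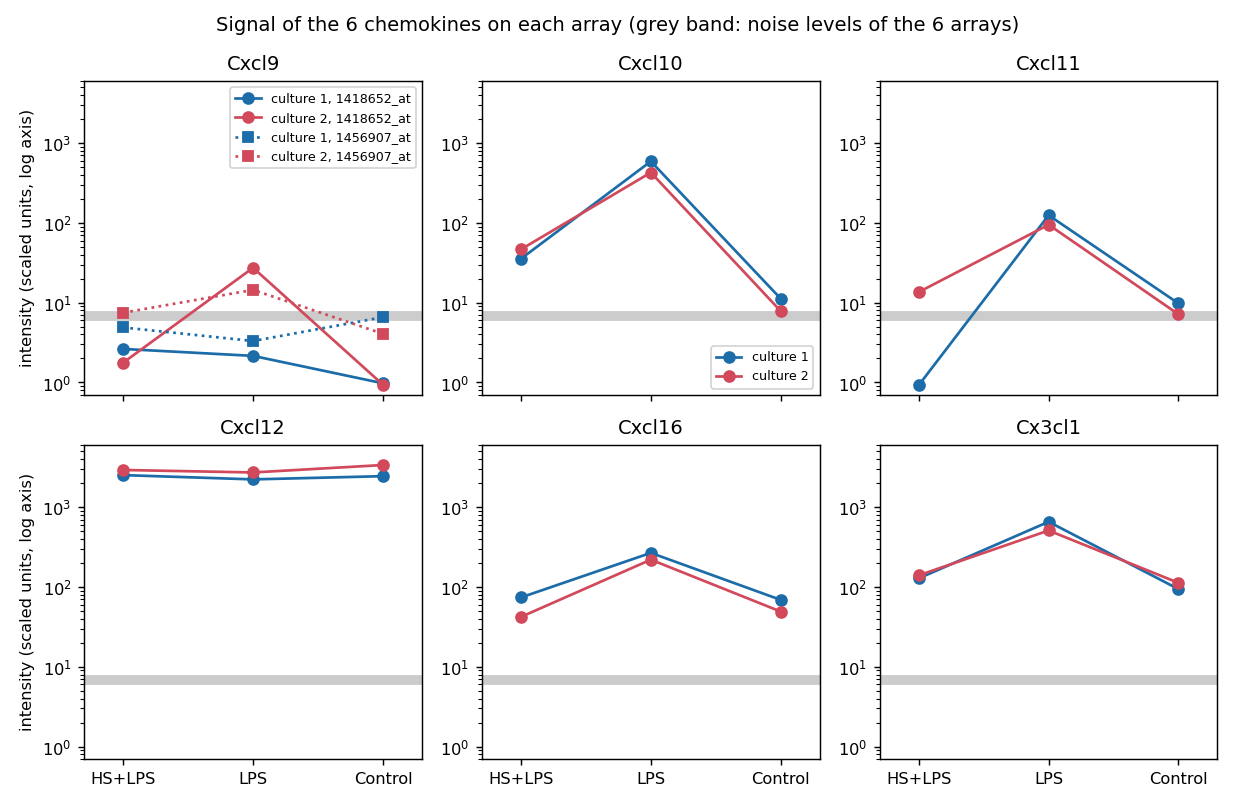
Intensity in scaled units (log axis) of the brightest probe set of each chemokine in HS+LPS, LPS and Control, with 1 line per culture and both probe sets for Cxcl9; the grey band spans the noise levels of the arrays. Cxcl10, Cxcl11, Cxcl16 and Cx3cl1 peak in LPS in both cultures, Cxcl12 stays between 2232 and 3379, and Cxcl9 leaves the noise clearly in LPS culture 2 alone.

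Cxcl10, also called IP-10, attracts Cxcr3-bearing T cells. It read 35.5 and 46.6 in HS+LPS, 591 and 428 in LPS, and 11.2 and 7.85 in Control (cultures 1 and 2). The 3 groups did not overlap, and every value was above the noise of its array, though the Control values only just so. The Control values lay under the medians of their arrays, 13.8 and 12.4. Against Control, LPS raised it 39.6-fold (95% interval 25.5 to 61.3, log2 difference 5.31, SE 0.26, limma adjusted p = 0.00593), the lowest p of all genes tested. The within-culture log2 differences were 5.35 and 5.27, so both cultures responded by nearly the same factor. The call for LPS against Control was lost without LPS culture 1 (adjusted p = 0.156), without LPS culture 2 (0.0995) or with only these 2 groups in the fit (0.0501). Against LPS, HS+LPS lowered it by a log2 difference of -3.52 (SE 0.26, adjusted p = 0.00739), with -3.93 in culture 1 and -3.11 in culture 2. Leaving out any 1 of these 4 arrays put the adjusted p between 0.059 and 0.0766. Of the increase over Control, 4.19% in culture 1 and 9.22% in culture 2 was still present in HS+LPS. That remainder left Cxcl10 at 3.45 times its Control level (95% interval 2.22 to 5.34 without the block), which did not pass without the block (adjusted p = 0.0681) and passed with it (adjusted p = 0.00153). Of the 5 members 0 were called in HS+LPS against Control without the block (0.17% of genes were called higher), and Cxcl10 was the 1 called with it (5.09% higher). Its groups and those of Cx3cl1 did not overlap in this comparison, as for 14.3% of genes that were higher.

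The promoter of Cxcl10 is shown because it belongs to the member with the largest rise, and that of Cx3cl1 because it belongs to the other member called in both LPS comparisons without the block. Both are the 250 bases upstream of the start site in RefSeq, build GRCm38.p6, of the C57BL/6J strain, written 5′ to 3′ on the strand of the gene. The table held 4 of the 6 members, Cxcl9, Cxcl10, Cxcl12 and Cx3cl1. Capitals mark matches on either strand to an interferon response core (GAAANNGAAA), the NF-kB consensus, the AP-1 site (TGANTCA), the STAT-binding GAS element (TTCNNNGAA) or a heat shock element (GAANNTTCNNGAA).
Cxcl10, chr5:92348890-92349139, minus strand: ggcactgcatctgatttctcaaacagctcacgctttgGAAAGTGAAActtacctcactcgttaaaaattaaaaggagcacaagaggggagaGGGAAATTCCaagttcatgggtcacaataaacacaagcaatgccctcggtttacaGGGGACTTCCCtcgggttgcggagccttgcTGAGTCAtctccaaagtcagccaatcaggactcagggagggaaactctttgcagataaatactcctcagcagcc
Cx3cl1, chr8:94771930-94772179, plus strand: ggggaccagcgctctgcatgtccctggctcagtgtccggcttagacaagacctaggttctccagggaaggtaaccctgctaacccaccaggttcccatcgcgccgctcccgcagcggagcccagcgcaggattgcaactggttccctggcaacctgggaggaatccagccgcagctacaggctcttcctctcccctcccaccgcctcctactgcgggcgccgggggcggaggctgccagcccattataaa

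Cxcl10 held the interferon response core at 213 to 204 bases upstream, an NF-kB match at 159 to 150 bases, a pair of overlapping NF-kB matches between 104 and 94 bases and an AP-1 match at 74 to 68 bases. The interferon response core was found in 2.98% of the 32851 promoter windows of the same length, the NF-kB consensus in 7.25% and the AP-1 site in 6.75%. The GAS element (7.02% of windows) and the heat shock element (0.466%) were not found in it. Cx3cl1, Cxcl9 and Cxcl12 held none of the 5 motifs in these windows. A match is a stretch of letters, and no binding was measured here.

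Cxcl11 (I-TAC) binds Cxcr3 and Ackr3. RefSeq lists it as a transcribed pseudogene in the C57BL/6J reference; the arrays read its transcript, and whether the ICR embryos carried a coding allele was not tested. Its brighter probe set read 0.924 and 13.6 in HS+LPS, 125 and 94.9 in LPS, and 9.79 and 7.15 in Control. The LPS arrays stood far above the others, whereas the Control arrays lay just above noise and HS+LPS culture 1 below it. The log2 difference of LPS against Control was 3.25 (SE 0.63), with 3.28 and 3.22 in the 2 cultures. It did not pass without the block (adjusted p = 0.285) and rose with it (adjusted p = 0.013). The LPS arrays also raised the mean signal by which Cxcl11 passed the filter. HS+LPS against LPS gave -3.72 (SE 0.63, adjusted p = 0.0605), and Cxcl11 fell with the block (adjusted p = 0.00219). The within-culture values were -4.90 and -2.54, so the size of the fall rested on the culture 1 array at 0.924, under its noise level of 7.67. The dimmer probe set, under the filter, read 4.26 and 3.35 in HS+LPS, 8.73 and 14.05 in LPS, and 3.75 and 1.03 in Control, and was likewise highest in LPS in both cultures.

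Cxcl9 (MIG), also a Cxcr3 ligand, was not above the filter. The probe set with the larger response read 2.63 and 1.77 in HS+LPS, 2.15 and 27.4 in LPS, and 0.976 and 0.938 in Control. The other read 4.89 and 7.49 in HS+LPS, 3.31 and 14.5 in LPS, and 6.58 and 4.08 in Control. Both probe sets were highest in LPS culture 2, and in culture 1 both stayed under noise in every group. With no filter and each probe set tested separately, the one with the larger response had a log2 difference of 1.59 for LPS against Control (limma adjusted p = 0.999, and 0.427 with the block). The other had 0.34 (adjusted p = 0.999, and 0.873 with the block). The 95% interval of the larger of these differences, -0.22 to 3.40 without the block, holds both 0 and a large rise. With the block it ran from 0.12 to 3.06, above 0, though the adjusted p did not pass and this probe set exceeded noise on 1 array alone.

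Cxcl9, Cxcl10 and Cxcl11 lie side by side on chromosome 5, with Art3, which lay under the filter, between the first pair. Of 7 non-member protein-coding genes up to 3 places away from them, 4 were tested (Naaa, Sdad1, Nup54 and Scarb2). Of these 0 passed in LPS against Control or HS+LPS against LPS, with or without the block, and their log2 differences ran from -0.23 to 0.59 and from -0.39 to 0.18. Around all 6 members 17 of 25 such neighbours were tested: 0 were called in these comparisons without the block, and with it 0 passed for LPS against Control and 3 were lower in HS+LPS against LPS (Rassf4, Pelp1 and Ciapin1), where 12.6% of all genes were. Their log2 differences ran from -0.39 to 1.46 and from -1.41 to 0.18. The highest for LPS against Control was Ccl17, next to Cx3cl1, close to the threshold with the block (limma adjusted p = 0.0513). Lower in HS+LPS than in Control with the block were 4 (Scarb2, Zfp637, Pelp1 and Coq9), where 12.1% of all genes were, and 0 without it.

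Cxcl16 serves both as a chemokine for Cxcr6-bearing T cells and as a scavenger receptor for oxidised lipids. Its brighter probe set read 74.0 and 42.2 in HS+LPS, 268 and 220.1 in LPS, and 68.9 and 49.2 in Control. LPS stood above both other groups, and HS+LPS and Control overlapped. LPS against Control gave a 3.99-fold difference (95% interval 2.37 to 6.71, adjusted p = 0.143), and Cxcl16 rose with the block (adjusted p = 0.000217). HS+LPS lowered it by a log2 difference of -2.05 against LPS (SE 0.31, adjusted p = 0.0467, and 8.81e-05 with the block). This call without the block lay close to the threshold and was lost under 12 of 17 alternatives. The second probe set read 60.1 and 38.6 in HS+LPS, 208 and 183 in LPS, and 41.8 and 30.7 in Control, with log2 differences of 2.34 for LPS against Control and -1.94 for HS+LPS against LPS. Culture 2 was dimmer than culture 1 in every group, at 0.570, 0.822 and 0.714 times its level in HS+LPS, LPS and Control on the brighter probe set.

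Cx3cl1, which as a membrane protein also tethers leukocytes, read 128 and 140.0 in HS+LPS, 657 and 511 in LPS, and 94.1 and 113 in Control on its brightest probe set. The groups did not overlap, with the gap between HS+LPS and Control small. LPS raised it 5.48-fold (95% interval 4.03 to 7.44, adjusted p = 0.0145), and HS+LPS lowered it against LPS by a log2 difference of -2.08 (SE 0.18, adjusted p = 0.0144). The 2 arrays of each group lay close together, and the SE of 0.18 was the smallest among the 5 members. Leaving out any 1 of the 6 arrays put the adjusted p between 0.0554 and 0.206 for LPS against Control, and leaving out any 1 of the HS+LPS or LPS arrays put it between 0.0715 and 0.109 for HS+LPS against LPS. HS+LPS against Control gave 1.29-fold (95% interval 0.952 to 1.76, adjusted p = 0.39, and 0.12 with the block). A second probe set read 49.6 and 65.8 in HS+LPS, 221 and 216 in LPS, and 41.6 and 30.2 in Control, with log2 differences of 2.52 and -1.88 for the same comparisons. The other 2 probe sets of Cx3cl1 read 0.449 to 7.01 over all arrays and exceeded noise on 1 array and on 0 arrays, so they give no measure of the gene here.

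**Figure D2:**
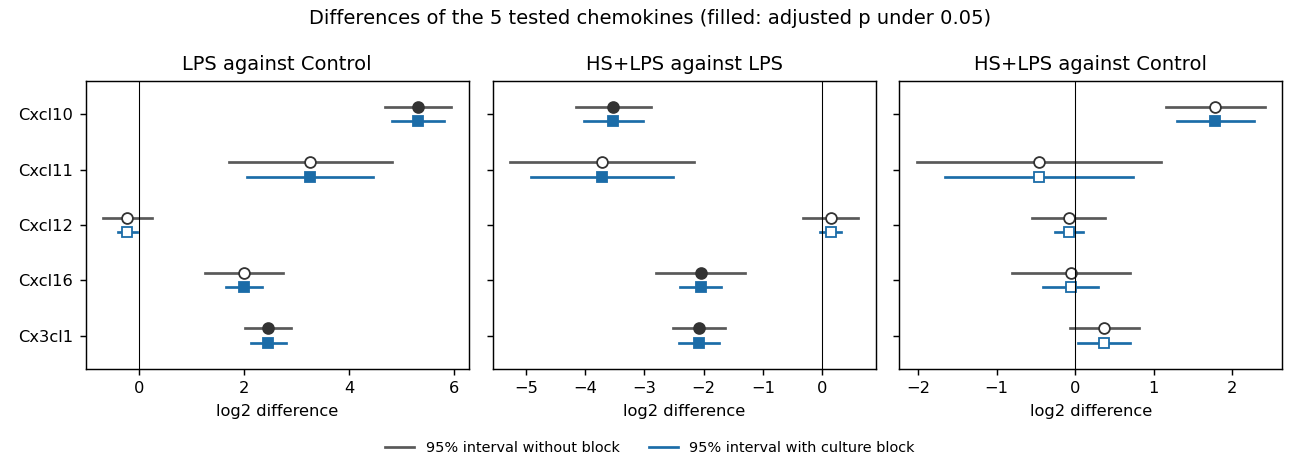
Log2 differences of the 5 tested chemokines in each comparison with 95% intervals, without (black circles) and with (blue squares) the culture as a block; filled symbols have adjusted p under 0.05. Cxcl10, Cxcl11, Cxcl16 and Cx3cl1 lie right of 0 for LPS against Control and left of 0 for HS+LPS against LPS, Cxcl12 stays near 0, and Cxcl10 is the 1 filled symbol for HS+LPS against Control.

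Cxcl12 (SDF-1) read 2525 and 2929 in HS+LPS, 2232 and 2725 in LPS, and 2449 and 3379 in Control on its brightest probe set. The groups overlapped in all 3 comparisons. LPS against Control gave 0.858-fold (95% interval 0.621 to 1.18, adjusted p = 0.999), and HS+LPS against LPS 1.10-fold (95% interval 0.799 to 1.52, adjusted p = 0.776). With the block these intervals narrowed to 0.757 to 0.972 and 0.973 to 1.25, and neither comparison passed (adjusted p = 0.218 and 0.25). The top of the interval for LPS against Control, 1.18-fold, lay far below the rise of the other tested members.

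A second bright Cxcl12 probe set went against the first. It read 368 and 777 in HS+LPS, 436 and 1058 in LPS, and 488 and 1189 in Control. In both cultures HS+LPS was the lowest and Control the highest. With all probe sets tested separately and the culture as a block, it fell in HS+LPS against LPS (log2 difference -0.34, adjusted p = 0.0302) and in HS+LPS against Control (-0.51, adjusted p = 0.00639), but it did not pass without the block (adjusted p = 0.856 and 0.792). The brightest probe set had 0.14 and -0.08 in these comparisons, so the probe sets differed in direction for HS+LPS against LPS. The same probe set also separated the cultures: culture 2 was 2.11, 2.43 and 2.44 times culture 1 in HS+LPS, LPS and Control, compared with 1.16, 1.22 and 1.38 times on the brightest. The remaining, dim probe set read 27.2 and 23.8 in HS+LPS, 4.89 and 24.8 in LPS, and 4.86 and 19.4 in Control, and stood higher in HS+LPS than in the other groups in culture 1 alone.

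**Figure D3:**
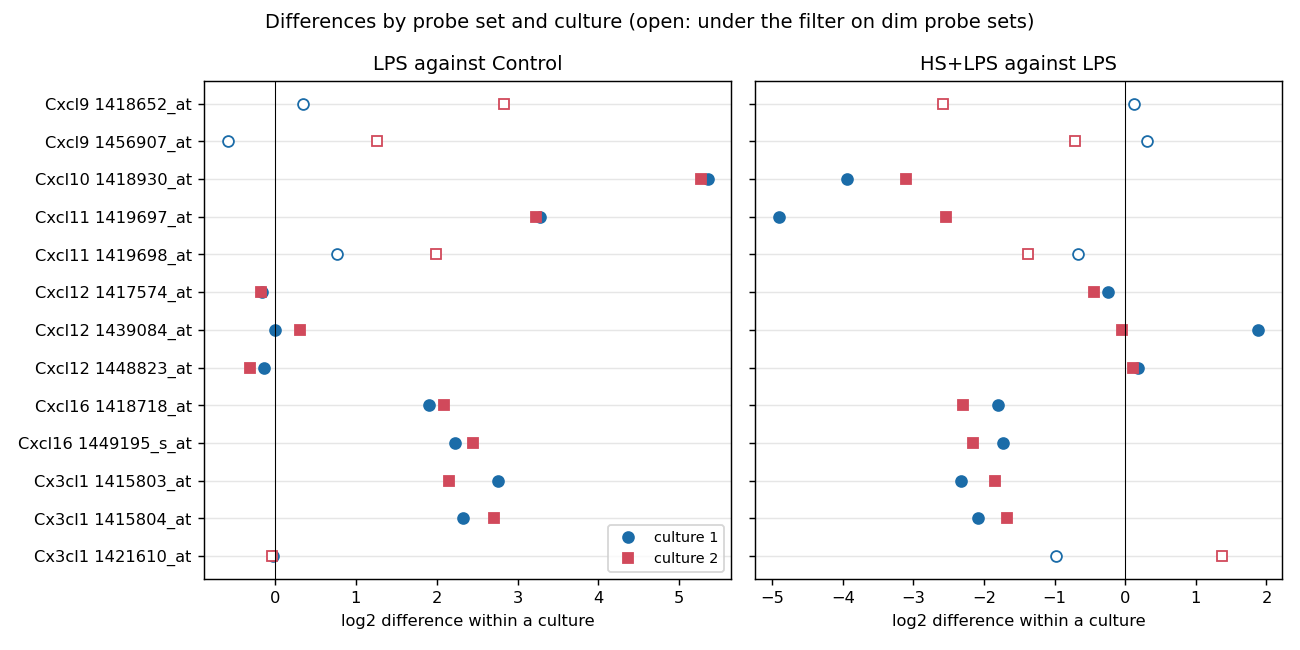
Log2 difference within each culture (blue circles culture 1, red squares culture 2) for the 13 member probe sets above noise on at least 1 array; open symbols were under the filter. The probe sets of Cxcl16 and the 2 bright ones of Cx3cl1 lie together, those of Cxcl12 scatter around 0, and those of Cxcl9 differ between cultures.

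The share of the LPS increase still present in HS+LPS was taken within each culture. On the 6 tested probe sets of Cxcl10, Cxcl11, Cxcl16 and Cx3cl1 it ran from -7.71% (Cxcl11, culture 1, where HS+LPS lay under Control) to 19.1% (second probe set of Cx3cl1, culture 2). For the brightest probe set of Cx3cl1 it was 6.11% and 6.88% in cultures 1 and 2, for Cxcl16 2.54% and -4.11%, and for Cxcl11 -7.71% and 7.34%. The rise itself ran from 3.99-fold for Cxcl16 to 39.6-fold for Cxcl10. For dim members this share rests on differences near noise.

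**Figure D4:**
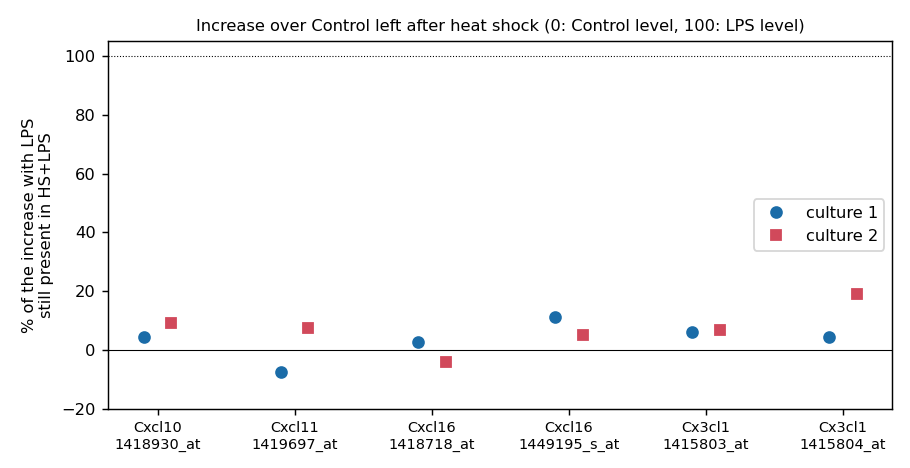
Percent of the intensity increase with LPS over Control that was still present in HS+LPS, by probe set and culture; 0 is the Control level and 100 the LPS level of the same culture. All 12 values lie between -7.71% and 19.1%.

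Among genes that are not members, profiles most like each member were sought by the root mean square difference of centred log2 values over the 6 arrays. For Cxcl10 these were Cmpk2, a mitochondrial nucleotide kinase (0.71), Acod1, which makes itaconate (0.74), and the neutrophil chemokine Cxcl3 (0.78). Their log2 differences for LPS against Control were 3.74, 4.52 and 4.00, and that of Cxcl10 was 5.31. In Control, Cmpk2 read 3.78 and 5.70 and Acod1 0.438 and 1.09, all under noise, while Cxcl3 read 4.14 and 11.6. Acod1 read 138 and 60.1 in LPS. The constant added to each intensity understates the change of such dim genes, so their rises are not ranked against that of Cxcl10. Cxcl11 was nearest to Slc7a2, a cationic amino acid transporter (0.47), AW112010 (0.56) and the CC chemokine Ccl9 (0.59). Cxcl16 was nearest to Lcn2, a siderophore-binding protein (0.16), complement factor B, Cfb (0.24), and Usp18, which removes the ubiquitin-like modifier ISG15 (0.25). Lcn2 read 202 and 152 in HS+LPS, 740 and 541 in LPS, and 217 and 137 in Control, and like Cxcl16 was highest in LPS in both cultures. Cx3cl1 was nearest to Icosl, a costimulatory ligand (0.26), Gpr84, a receptor for medium-chain fatty acids (0.29), and Ch25h, which makes 25-hydroxycholesterol (0.32). Cxcl12, which hardly varied on the brightest probe set used here, was nearest to Sdhaf4, Aqp11 and Prkra (0.03, 0.04 and 0.04). Between members the closest pair was Cxcl16 and Cx3cl1 (0.39), while Cxcl10 and Cxcl11, neighbours on chromosome 5, differed by 1.12.

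Of the receptors of these chemokines, 0 of 5 passed in LPS against Control with or without the block, and 0 without the block in any comparison. With the block 3 of 5 rose in HS+LPS against LPS, where 6.32% of all genes did (median log2 difference of the list 0.62, against -0.05 for all genes). Ackr3, which scavenges Cxcl12 and Cxcl11, read 602 and 819 in HS+LPS, 399 and 519 in LPS, and 403 and 457 in Control. It rose in HS+LPS against both other groups with the block (log2 differences 0.62 and 0.71, adjusted p = 0.00247 and 0.00188), while without the block it did not pass (adjusted p = 0.216 and 0.181). Cxcr4 was dim at 29.6 and 16.5 in HS+LPS, 5.59 and 3.16 in LPS, and 6.93 and 10.7 in Control (HS+LPS against LPS 1.74, adjusted p = 0.0189 with the block and 0.11 without). Its LPS values lay under noise. Cxcr4 and Ackr3 were thus both highest in HS+LPS in each culture. Cx3cr1 read 20.7 and 17.2 in HS+LPS, 9.71 and 2.99 in LPS, and 13.2 and 9.52 in Control (1.29, adjusted p = 0.0401 with the block and 0.216 without). Its value in LPS culture 2 lay under noise, so the size of this difference is not well measured. Cxcr6 read 35.9 and 11.4, 47.4 and 23.7, and 59.5 and 25.3 in HS+LPS, LPS and Control, and was lower in HS+LPS than in Control with the block (-0.82, adjusted p = 0.0424). Cxcr3 read 9.32 to 15.4 on all arrays and did not pass in any comparison.

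Of the proteases that shed or trim the chemokines, 5 of 6 were tested; Dpp4, which clips Cxcl9 to Cxcl12, lay under the filter. Without the block 0 passed in any comparison, and with it 1 rose with LPS (2.06% of all genes did) and 2 fell in HS+LPS against LPS (12.6% did). Adam17, a sheddase of Cx3cl1, read 177 and 239.7 in HS+LPS, 262 and 388 in LPS, and 204 and 305 in Control (HS+LPS against LPS -0.62, adjusted p = 0.0032 with the block and 0.349 without). Adam10, which sheds Cxcl16 and Cx3cl1 in resting cells, stayed at 769 to 843 on all arrays. Mmp9, a gelatinase, read 12.1 and 41.2 in HS+LPS, 32.1 and 142 in LPS, and 9.22 and 26.5 in Control. With the block it rose with LPS (1.89, adjusted p = 0.00466) and fell in HS+LPS against LPS (-1.45, adjusted p = 0.00591), while without the block the adjusted p were 0.999 and 0.458. Mmp2 and Mmp14, which can inactivate Cxcl12, did not pass in any comparison.

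Upstream of the Cxcr3 ligands lies interferon signalling, through receptors, Janus kinases and the transcription factors Stat2, Irf9 and other interferon regulatory factors. Of 15 genes 12 were tested. The interferon genes lay under the filter: Ifnb1 read 5.33 and 10.8 in HS+LPS, 0.992 and 7.50 in LPS, and 5.82 and 11.9 in Control, and Ifng 0.259 to 6.08 on all arrays. Ifnb1 was above noise on 3 of the 6 arrays, and in culture 1 on none, so no direction is read from it. Another gene of the list was not analysed here. For LPS against Control 0 of 12 were called without the block and 3 rose with it, where 2.06% of all genes did: Ifnar1, a chain of the type I interferon receptor (0.64, adjusted p = 0.0133), the kinase Jak2 (1.10, adjusted p = 0.000745) and the factor Irf1 (0.77, adjusted p = 0.00884). Heat shock before LPS lowered 2 of them without the block and 9 with it, against LPS, where 0.828% and 12.6% of all genes fell, and the median of the list was -0.93 against -0.05 for all genes. The pair was Ifnar1 (-0.92, adjusted p = 0.0442) and Stat2 (-1.71, adjusted p = 0.0248). Stat2 read 24.97 and 20.4 in HS+LPS, 88.3 and 75.1 in LPS, and 60.1 and 59.2 in Control. It lay under its Control level after heat shock and also passed there with the block (-1.28, adjusted p = 0.00256). Irf1 read 100.04 and 120.2 in HS+LPS, 270.4 and 358 in LPS, and 148 and 223 in Control (HS+LPS against LPS -1.48, adjusted p = 0.000103 with the block and 0.0599 without). Besides these, Ifngr1, Ifngr2, Jak2, Irf3, Irf7 and Irf9 fell with the block in HS+LPS against LPS, with log2 differences from -0.63 (Ifngr2) to -1.36 (Irf7). Below Control in HS+LPS with the block were 4 of them, Stat2, Irf1, Irf3 and Irf9 (12.1% of all genes were), and 0 without it.

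NF-kB, the other main driver of Cxcl10 and Cx3cl1, is activated through the LPS receptor Tlr4. Of 11 genes 10 were tested. In LPS against Control 0 were called without the block and 4 rose with it (Rela, Relb, Nfkb2 and Nfkbia), where 2.06% of all genes did. Nfkbia, the NF-kB inhibitor IkB-alpha and itself an NF-kB target, read 2402 and 2924 in HS+LPS, 3228 and 3245 in LPS, and 1271 and 1587 in Control. It stayed above Control after heat shock (log2 difference 0.90, adjusted p = 0.000566 with the block and 0.0816 without), and HS+LPS against LPS did not pass (-0.29, adjusted p = 0.409, and 0.0521 with the block). Against LPS, HS+LPS lowered 2 without the block, the LPS co-receptor Cd14 (-1.50, adjusted p = 0.0306) and the subunit Relb (-1.15, adjusted p = 0.0494), and 5 with it, Myd88, Rela and Nfkb2 being the others (0.828% of all genes fell without the block and 12.6% with it). Tlr4 read 147 and 167 in HS+LPS, 128 and 117 in LPS, and 94.1 and 76.0 in Control, and was higher in HS+LPS than in Control with the block (0.86, adjusted p = 0.00533) and not without it (adjusted p = 0.11). Tlr4 and Nfkbia were higher in HS+LPS than in Control with the block (5.09% of all genes were), and Cd14 and Myd88 lower (12.1% were). Ly96, Ticam1 and Rel did not pass in any comparison.

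**Figure D5:**
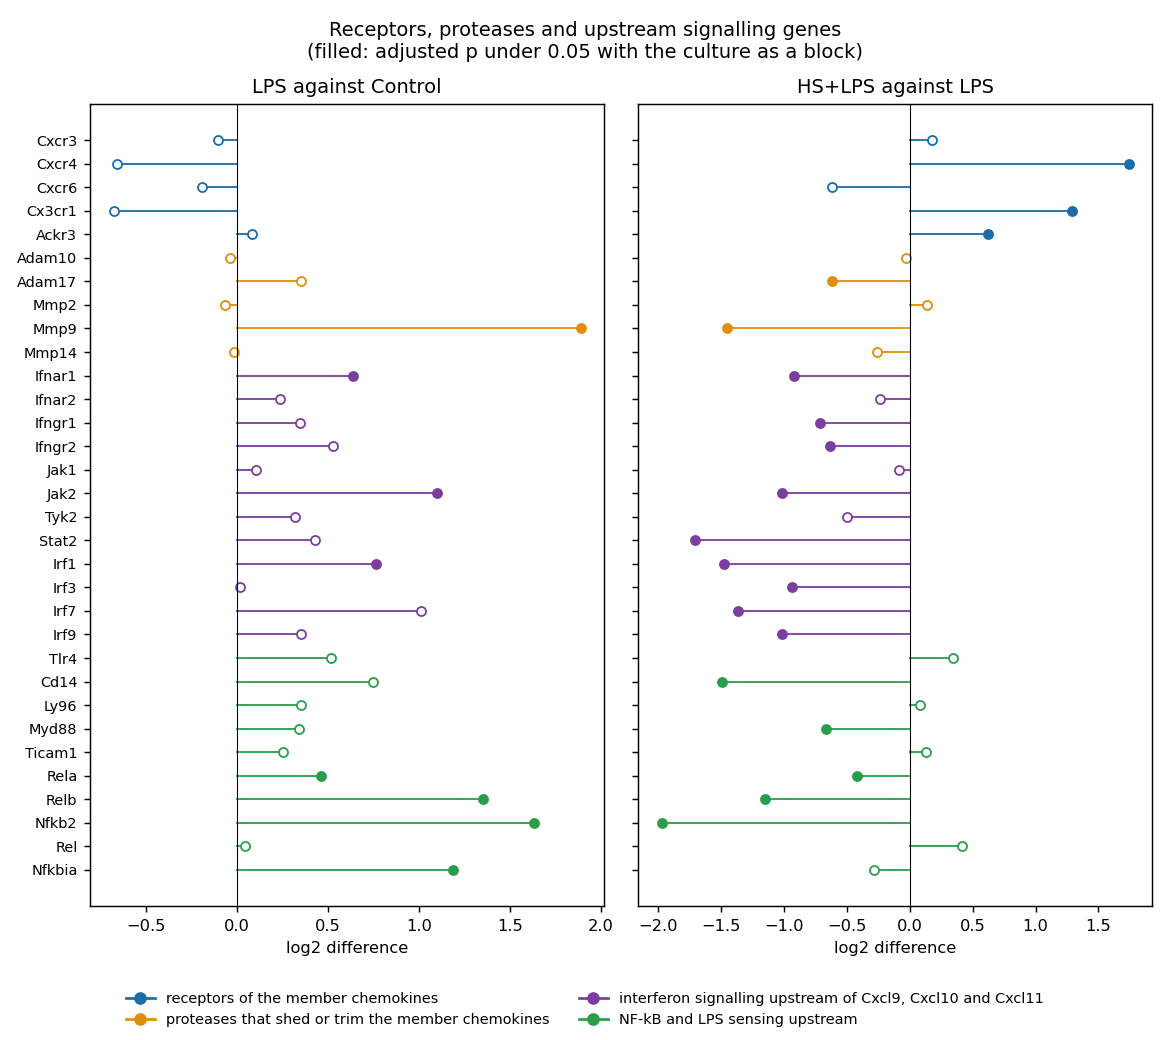
Log2 differences of the tested receptors (blue), proteases (orange), interferon signalling genes (purple) and NF-kB and LPS sensing genes (green); filled symbols have adjusted p under 0.05 with the culture as a block. For HS+LPS against LPS 9 of 12 interferon signalling genes are filled on the left, while 3 of 5 receptors are filled on the right.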

How the data were processed

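RNA from 6 samples was labelled by one-cycle cDNA synthesis and hybridised to 1-colour Affymetrix mouse arrays, per the labels' protocols. The deposited values are linear signal intensities, scaled by the authors to a trimmed mean of 100.001 on every array; their software was not given in the sources used here. The arrays had medians of 11.9 to 14.4. The number of arrays, 2 per group, limits the precision, and p-values rest on 2 cultures.

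Intensities were turned into log2(intensity + 3.37), the 25th percentile of all values. Control probe sets were left out, as were those whose mean log2 signal lay in the lowest 40%. The brightest remaining probe set with 1 symbol in the platform annotation stood for each gene. limma 3.58.1 in R 4.3.3 (lmFit, eBayes with an intensity trend, 1 fit of 3 groups) tested 12918 genes, with Benjamini-Hochberg adjusted p under 0.05 over all of them. The script was tested on simulated data. The numbers pair the arrays, because same-numbered arrays come from 1 embryo, per the labels; deviations from group means correlated at 0.54 to 0.62 between groups. The culture was therefore added as a block in an alternative, given where it changes a call. Other alternatives varied pseudocount, filter, scaling, probe set rule, trend and samples.

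The members, gene lists and tests were chosen with earlier results of these data known. Named genes are all 6 members, the 3 most alike genes for each tested member, neighbours, and listed genes that passed in either fit or are receptors; other listed genes are named where a count needs them. Neighbouring genes, and the separate tests of the Cxcl9 probe sets with no filter, were chosen after the data were seen.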

Additional observations from a re-analysis of the deposited data

How the results depend on the processing

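With the culture as a block, 4 members were called higher in LPS against Control in place of 2, and 1 in place of 0 in HS+LPS against Control; all genes called were 359, 2443 and 2219 for LPS against Control, HS+LPS against LPS and HS+LPS against Control, in place of 19, 173 and 23. The block left 4 members lower in HS+LPS against LPS in place of 3. In LPS against Control, no intensity trend gave 1 member and 5 genes, and fitting only the 2 groups 0 members and 0 genes (0 by limma there; the fit of 3 groups had 410 higher and 219 lower genes at an unadjusted p under 0.05). Leaving out 1 array gave 0 to 1 members and 0 to 4 genes there, the 0 coming without either LPS array. For HS+LPS against LPS the genes called were 84 with no intensity trend and 76 with only the 2 groups, and leaving out 1 array gave 8 to 76 genes and 0 to 2 members called lower, with 0 without either LPS array or HS+LPS culture 1 and 1 without HS+LPS culture 2. For HS+LPS against Control median centring called 1 member, Cxcl10, higher (adjusted p = 0.0483) and 59 genes, the median pseudocount of 13.1 called 57, a filter at the 60th percentile 37, all probe sets separately 45, no intensity trend 13, only the 2 groups 14, and leaving out 1 array 8 to 14. Median centring set 86.4% of these calls higher, where 95.7% were as deposited; the median of all genes moved by under 0.1 with each scaling. The signs of Cxcl10 and Cx3cl1 held under all 17 alternatives in all 3 comparisons, and those of Cxcl11 (16 alternatives) and Cxcl16 (17) in LPS against Control and HS+LPS against LPS. Most of these alternatives could not have turned a sign. The block, the filter, the trend, separate probe sets and fitting only the 2 groups left these differences unchanged. Leaving out 1 array could not turn it either, because the groups of these genes did not overlap in these comparisons. Adjusted p of Cxcl10 ran from 6.36e-06 to 0.156 for LPS against Control and from 3.22e-05 to 0.0766 for HS+LPS against LPS, of Cx3cl1 from 5.66e-05 to 0.206 and from 6.25e-05 to 0.109, and of Cxcl16 for HS+LPS against LPS from 8.81e-05 to 0.235. For Cxcl11 in HS+LPS against LPS the median pseudocount gave adjusted p = 0.0276 and leaving out HS+LPS culture 2 0.0474. The causes of these changes were not tested. Leaving out an array changes both the number of arrays and the values used, and the refits do not part these. The filter at the 60th percentile left no value for Cxcl11. Signals near noise limit what can be said of Cxcl9 and Cxcl11. The counts of members called with the block include Cxcl11, whose LPS arrays raised the mean signal by which it passed the filter.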
